A study of Mus musculus with 6 samples.

Results

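Paired Ig-like receptors and Siglecs are families of surface receptors of immune cells, and this is an account of 37 of their genes in macrophages of a mouse melanoma. The 37 were every row of the deposited tables with the biotype protein_coding and a name starting with Siglec, Lilr, Pilr, Pira, Pirb, Cd300, Cd200r, Sirp or Trem, together with *Cd22*, *Cd33* and *Lair1*, provided that its counts over all 6 libraries came to 10 or more. *Trem2* and *Siglecf* were left out by the rule, and 0 matching rows fell under 10 counts. The 37 are part of 14776 protein-coding genes tested and of 23424 rows in all. They were 7 Siglecs with *Cd22* and *Cd33*, 6 LILR, PIR and *Lair1* genes, 3 PILR, 8 CD300, 4 CD200R, 4 SIRP and 5 TREM genes. *Cd300lh*, with 12 counts, was the member nearest to the limit.

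Many of these receptors come in pairs with similar ectodomains and opposite signals. An inhibitory receptor carries ITIMs, short tyrosine motifs in its tail that recruit the phosphatases SHP-1 and SHP-2, whereas its activating relative has a short tail and signals through an adaptor with an ITAM, DAP12 (*Tyrobp*) or the Fc receptor gamma chain (*Fcer1g*), to the kinase SYK. Siglecs bind sialic acids on glycans, SIRPα binds CD47, CD200R1 binds CD200, and in tumors such contacts can restrain phagocytosis and cytokine release by macrophages.

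The tumors were intradermal YUMM1.7 melanomas, a mouse line that carries mutant *Braf* and lacks *Cdkn2*, grown in wild-type, untreated female C57Bl/6J mice that were 8 weeks old at induction. On day 21, live CD45+CD11b+F4/80+ cells negative for lineage markers were sorted into F4/80high and F4/80low TAMs, both from the same tumors, and RNA was read by bulk RNA-seq of poly-A libraries. Each of the 3 replicates of a subset was an independent experiment on 10 pooled tumors, so a library stands for a pool and not for a mouse, and the replicate number pairs the subsets. Replicates 1 and 2 were batch 1 of the study and replicate 3 was batch 2.

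The 6 libraries held between 16045281 and 43604373 counts, of which 97.4 to 98.1% in batch 1 and 89.4 and 90.0% in batch 2 lay in the genes tested. The gene of F4/80, *Adgre1*, was at 273, 539 and 360 CPM in replicates 1, 2 and 3 of F4/80high and at 243, 326 and 183 CPM in F4/80low, higher in F4/80high in 3 of 3 pairs (CPM is the count relative to the TMM-scaled library size). All 10 macrophage markers were measured, at a summed 6411 to 23995 CPM in F4/80high and 8122 to 12194 CPM in F4/80low. In bulk RNA, fewer cells of a type and less RNA per cell cannot be told apart. Markers of other cells were also read, and they moved with the subset. All 12 neutrophil markers tested had a log2 fold change below 0 in F4/80high, 9 of them at an unadjusted p under 0.05, with a summed 782 to 2210 CPM in F4/80high and 1579 to 5043 CPM in F4/80low, and 6 passed the test that pairs the libraries by replicate. All 9 eosinophil markers tested were below 0, 7 of them at that p, with 177 to 538 CPM against 391 to 1547 CPM, and in that list *Epx* was at 0 counts in F4/80high replicate 1. All 10 T and NK cell markers were above 0, 3 of them at that p, with 281 to 1571 CPM against 124 to 702 CPM. The part of these cells in the values of the receptors was not tested.

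The family spanned a wide range of levels, from the row named *Lilrb4*, at a mean of 425 CPM per kb of gene length over the 6 libraries, to *Cd300lh*, at 0.0901 CPM per kb. A separate row for *Gp49a*, a near relative of *Lilrb4*, stood at 336 CPM per kb, and how reads were split between these rows is not known, so the 425 may not be the level of a single gene. By mean level, *Lilrb4* was followed by *Sirpa* at 139 and *Trem1* at 105 CPM per kb, then *Cd300lf* and *Cd300ld* at 53.8 and 53.0, *Lair1* at 49.6, *Pirb* at 44.6, *Pilra* at 44.2 and *Cd33* at 34.0 CPM per kb. The order from *Cd300lf* to *Cd33* is within the spread of the libraries, since each of these ranged over more than the distance to its neighbours. The order of *Sirpa* and *Trem1* did not hold in every library either, since *Trem1* was above *Sirpa* in both libraries of replicate 1, and in F4/80high replicate 3 *Trem1* was below *Lair1* and *Pirb*. Of the 9, *Lilrb4*, *Sirpa*, *Cd300lf*, *Lair1*, *Pirb* and *Pilra* encode inhibitory receptors. Summed over the 11 members known to be inhibitory, the level was 678, 1132 and 561 CPM per kb in replicates 1, 2 and 3 of F4/80high, against 1117, 818 and 697 for F4/80low. Summed over the 19 members known to pair with an adaptor, it was 267, 313 and 158 in F4/80high, against 537, 302 and 194 in F4/80low, and for both classes the libraries of the subsets overlapped. At the other end, *Siglec15*, *Cd300lh*, *Cd300c*, *Treml1*, *Cd200r2* and *Cd200r3* stayed under 1 CPM per kb on average.

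**Figure D1:**
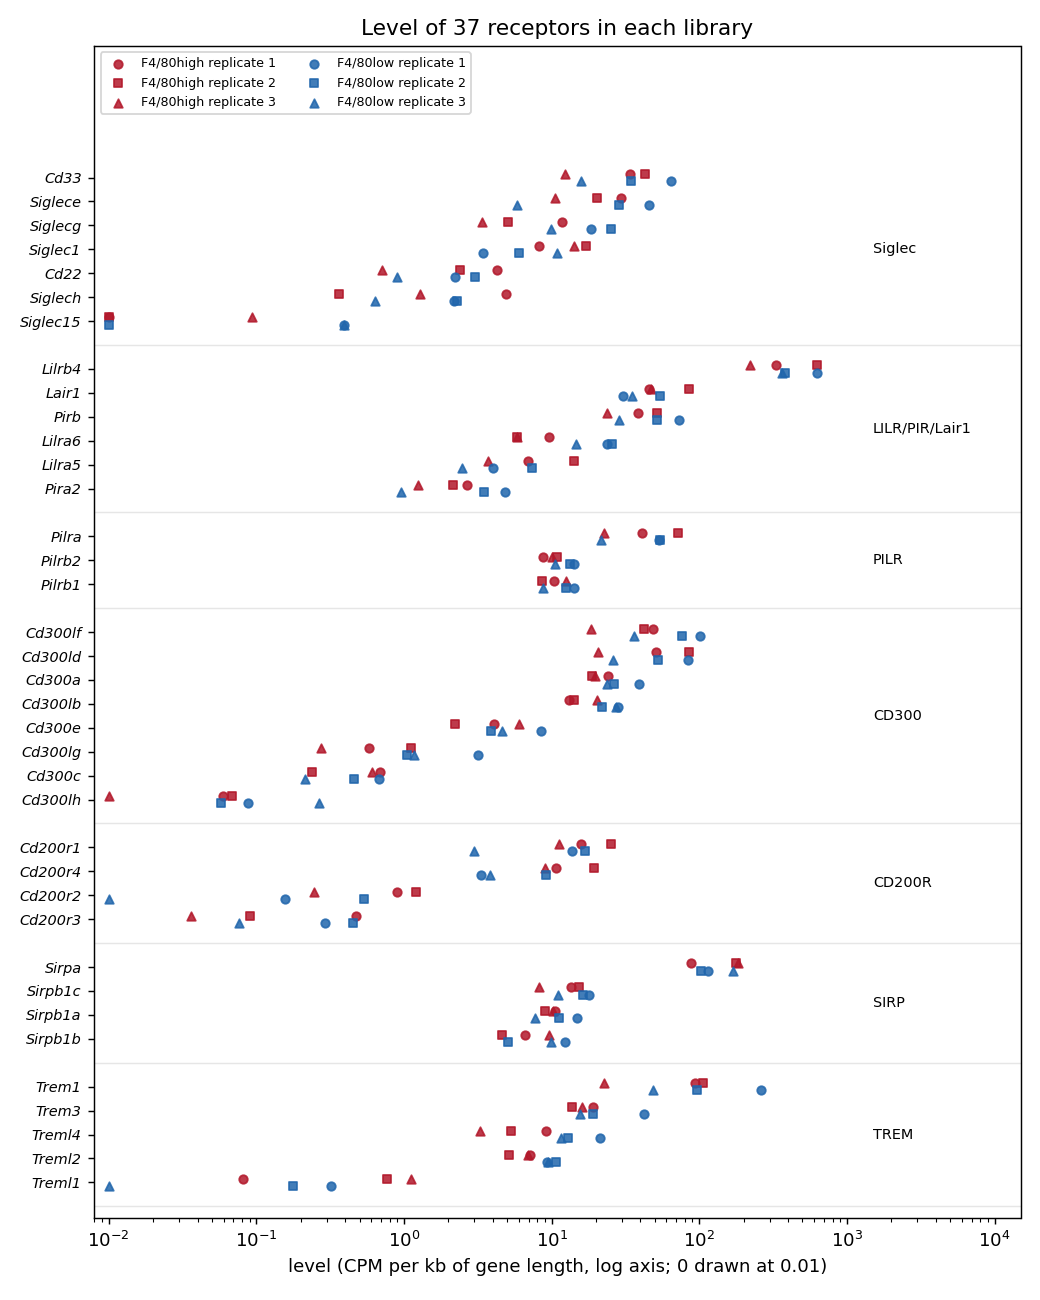
Level of each of the 37 receptors in each library, in CPM per kb of gene length on a log axis, with F4/80high in red and F4/80low in blue, a symbol for each replicate, and members ordered by mean level within their family. Lilrb4 leads at a mean of 425 CPM per kb, and for all but 4 members (Lilra6, Cd300lb, Treml2 and Treml4) the red and blue points overlap.

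No receptor passed the test with batch as a term. In edgeR's quasi-likelihood fit, a gene was called if its p, adjusted by Benjamini-Hochberg, was under 0.05 and it differed by more than 1 log2 unit either way, and 0 of 37 members and 0 of 14776 genes (0%) were called. At an unadjusted p under 0.05 there were 11 of 37 members (29.7%), against 1118 of 14776 genes (7.57%), and DESeq2 with the same terms called 3 of 37 members, *Lilra6*, *Siglecg* and *Treml4*, against 150 genes (1.02%). The 11 were 8 members lower in F4/80high (21.6% of members, against 4.3% of all genes) and 3 higher (8.11%, against 3.26%). With library size in place of TMM, 7 members were lower and 3 higher at that p, while the split over all genes turned from 482 higher and 636 lower to 564 higher and 484 lower. The count of 11 was 5 without F4/80low replicate 1 and 7 without either library of replicate 3. Over all genes the 1118 at that p became 603 and 562. Fitted with the replicate as a block in place of batch, which uses the pairing, 13 members had an unadjusted p under 0.05 (9.84% of all genes did) and 1 was called, *Lilra6*, against 76 genes (0.514%).

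The direction leaned towards F4/80low. The median log2 fold change of the 37 members was -0.36, with 25 below 0 and 12 above, against 0.01 over all genes tested. By pair the median was -0.64, -0.15 and -0.08 in replicates 1, 2 and 3, and without F4/80low replicate 1 the fitted median was -0.07. Lower in 3 of 3 pairs were 11 members (29.7%, against 15.7% of all genes), and higher in 3 of 3 pairs were 6 (16.2%, against 16%). The libraries of the subsets did not overlap for 4 members (10.8%, against 5.16% of all genes), and all 4 were lower in F4/80high. The inhibitory members had 2 lower and 1 higher at an unadjusted p under 0.05 and a median of -0.13, and the adaptor-paired members had 3 lower and 1 higher and a median of -0.36.

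**Figure D2:**
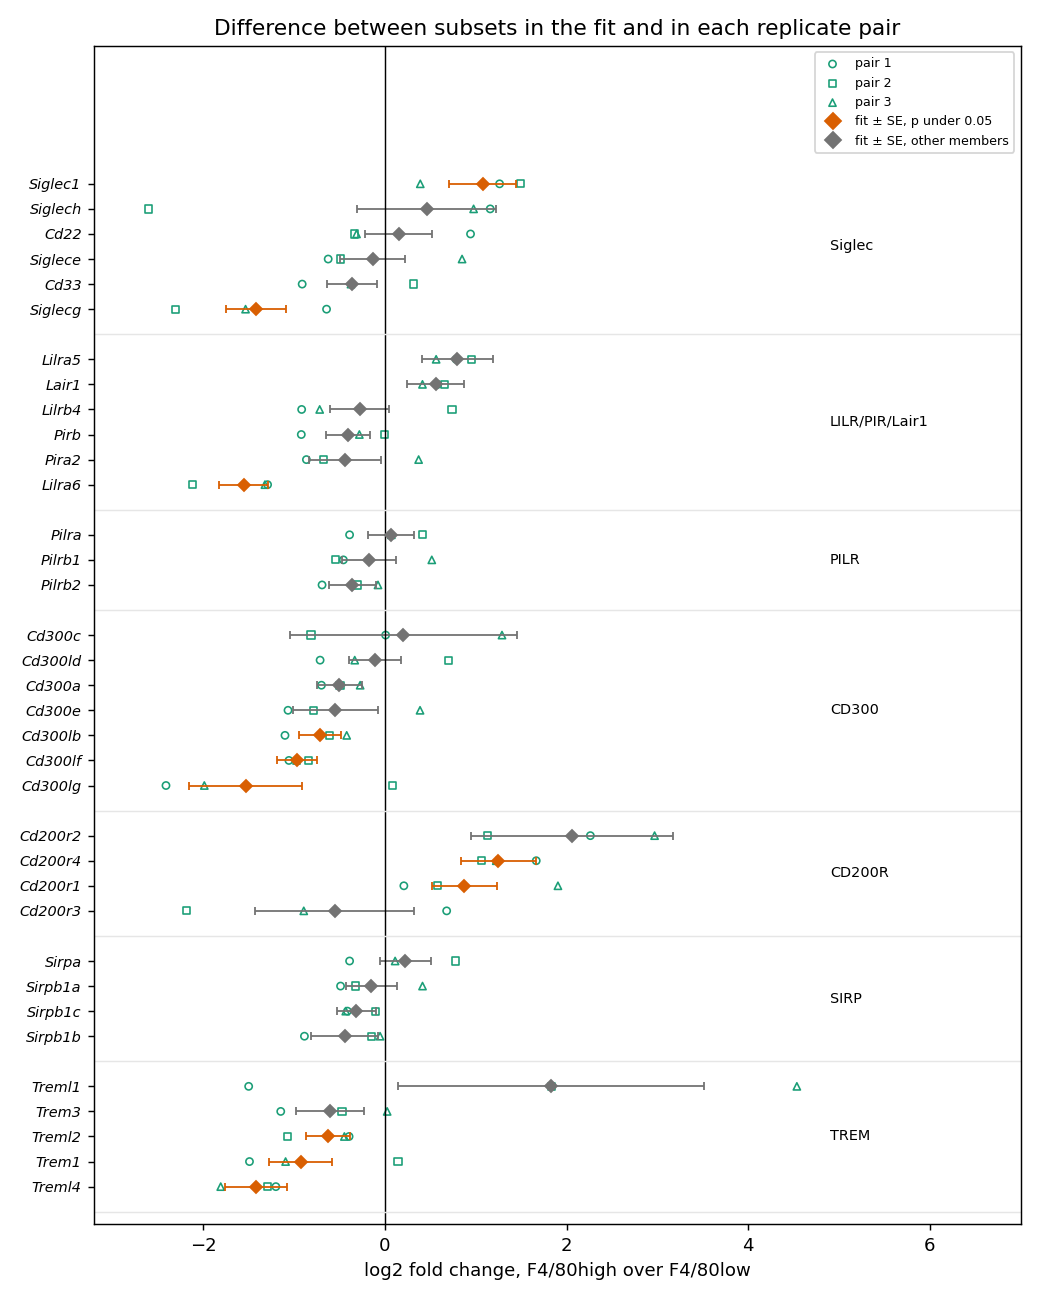
Log2 fold change of F4/80high over F4/80low for 35 members by family, with the edgeR fit as diamonds with SE (orange at an unadjusted p under 0.05) and the 3 replicate pairs as open symbols. Siglec15 and Cd300lh are left out because every library of a subset was at 3 counts or fewer. Of the 4 CD200R genes 3 lie right of 0 in every pair, whereas the CD300 and TREM genes lie mostly left of 0.

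The LILR and PIR genes sit with *Lair1* on chromosome 7, where *Pirb*, *Pira2*, *Lilra6*, *Lair1* and *Lilra5* lie within 532 kb (GRCm38, chromosome 7, 3711409 to 4243463). Their receptors bind MHC class I and other ligands, apart from LAIR1, which binds collagen. *Lilra6*, an activating receptor of the PIR-A type that signals through the Fc receptor gamma chain, was at 27.9, 16.94 and 16.95 CPM in replicates 1, 2 and 3 of F4/80high and at 68.4, 73.8 and 42.5 CPM in F4/80low. All 3 F4/80high libraries lay below all 3 F4/80low libraries. The log2 fold change was -1.56 ± 0.27 (SE), with pairs at -1.29, -2.12 and -1.32, and it lay between -1.75 and -1.37 under the 18 alternatives. The edgeR adjusted p was 0.443 with batch and 0.0464 with the replicate block, under which *Lilra6* fell, and the DESeq2 adjusted p with batch was 0.000174.

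*Pirb*, the inhibitory receptor of the same pair, was at 173, 231 and 106 CPM in F4/80high and 328, 232 and 129 CPM in F4/80low, and the subsets overlapped. The pairs were uneven, at -0.92, -0.01 and -0.28, so that replicate 2 was nearly level, with a log2 fold change of -0.41 ± 0.24 (edgeR adjusted p = 0.708). *Pira2*, another PIR-A gene, had 27 to 623 counts a library and a log2 fold change of -0.44 ± 0.40, with the sign turned in replicate 3. Per kb, *Pirb* stood 4.02, 8.82 and 4.05 times above *Lilra6* in F4/80high and 3.10, 2.03 and 1.97 times in F4/80low, with *Pira2* left out of the ratio. The log2 ratio was higher in F4/80high in 3 of 3 pairs, by a mean of 1.18 (exact permutation test, two-sided p = 0.1, the smallest that 3 against 3 libraries allow, and 0.5 adjusted over the 5 ratios computed). That test, like those of the other ratios, shuffles the libraries without regard to pair or batch. An exact sign-flip test of the pairs gave a two-sided p of 0.25, the smallest that 3 pairs allow. These genes share sequence, so the split of reads between them depends on the counting. Of all 50-base windows of *Lilra6* transcripts in GENCODE M21, 31.3% also occur in another gene, of *Pirb* 34.0% and of *Pira2* 93.0%.

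The stretches upstream of *Lilra6* and *Pirb*, both lower in F4/80high in 3 of 3 pairs, are shown with that of *Lilra5*, a neighbor with the opposite direction. Whether *Lilra6* and *Pirb* differ was not settled by the tests of their ratio, at the smallest p that these allow. The part of the upstream sequences in the values was not tested. Each is the 250 bases before the start of the gene in RefSeq on GRCm38.p6, read 5′ to 3′ on the strand of the gene, at chr7:3915502-3915751 (minus strand) for *Lilra6*, chr7:3720383-3720632 (minus strand) for *Pirb* and chr7:4237504-4237753 (plus strand) for *Lilra5*. Capitals mark GAGGAA, a purine-rich word like those that the myeloid factor PU.1 binds, on either strand (TTCCTC on the strand printed).
Lilra6: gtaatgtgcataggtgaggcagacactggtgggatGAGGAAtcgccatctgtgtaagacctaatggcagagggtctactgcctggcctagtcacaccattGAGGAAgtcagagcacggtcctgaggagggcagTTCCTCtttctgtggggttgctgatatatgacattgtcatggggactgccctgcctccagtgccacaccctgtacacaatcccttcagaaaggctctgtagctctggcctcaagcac
Pirb: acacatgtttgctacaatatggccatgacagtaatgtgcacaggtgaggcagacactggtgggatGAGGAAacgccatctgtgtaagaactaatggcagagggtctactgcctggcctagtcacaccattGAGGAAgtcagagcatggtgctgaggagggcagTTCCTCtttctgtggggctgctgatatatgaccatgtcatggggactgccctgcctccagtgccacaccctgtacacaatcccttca
Lilra5: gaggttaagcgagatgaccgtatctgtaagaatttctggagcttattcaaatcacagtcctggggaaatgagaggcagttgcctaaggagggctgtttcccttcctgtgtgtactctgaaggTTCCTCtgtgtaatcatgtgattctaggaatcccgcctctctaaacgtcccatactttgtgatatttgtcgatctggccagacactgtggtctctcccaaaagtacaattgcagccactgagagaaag
Over 270 aligned bases without gaps, the promoters of *Lilra6* and *Pirb* (with 50 bases after the start) were identical at 95.9%, and the best such alignment of *Lilra6* with *Lilra5* reached 35.2%. *Lilra6* and *Pirb* each held 3 copies of the word and *Lilra5* held 1. The word occurred in 23.3% of all 32851 promoters in this window, and in 17 of the 29 members with a promoter in the table (58.6%), on either strand. These shares are not alike, since the first counts every promoter and the second 1 promoter per member. Among the 17, *Lilra6*, *Pirb* and *Pira2* are near copies, identical at 95.9 to 97.1%, and are counted separately. *Cd200r1*, *Cd300lg*, *Lilrb4*, *Siglec1*, *Siglec15*, *Sirpa*, *Trem3* and *Treml2* had no entry.

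*Lair1*, the inhibitory collagen receptor, was at 172, 320 and 176 CPM in F4/80high and 115, 203 and 132 CPM in F4/80low, higher in 3 of 3 pairs but with overlapping subsets. Its log2 fold change was 0.56 ± 0.31, with pairs at 0.58, 0.66 and 0.41 (edgeR adjusted p = 0.701 with batch and 0.342 with the block). *Lilra5*, an activating receptor, was higher by a like amount, 0.80 ± 0.39, with 46 to 1542 counts a library and pairs at 0.78, 0.95 and 0.56 (edgeR adjusted p = 0.690). Without F4/80high replicate 2 the log2 fold change was 0.21 for *Lair1* and 0.37 for *Lilra5*. *Lilrb4*, an inhibitory receptor with integrin and other ligands on chromosome 10, was at 493, 942 and 328 CPM in F4/80high and 931, 565 and 540 CPM in F4/80low, with the order of the subsets turned in replicate 2 (log2 fold change -0.28 ± 0.32). The deposited row is a locus (chromosome 10, 51480612 to 51496613) that overlaps other *Lilrb4*-type genes, and 96.6% of its 50-base windows occur in them.

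Among the Siglecs, *Siglecg* and *Siglec1* stood at opposite ends. *Siglecg*, an inhibitory Siglec best known from B cells, whose ligands include CD24, was at 56.6, 24.4 and 16.3 CPM in F4/80high and 88.4, 121 and 47.4 CPM in F4/80low. It was lower in every pair, by -0.64, -2.30 and -1.54, though F4/80high replicate 1 lay above F4/80low replicate 3. The log2 fold change was -1.42 ± 0.33 (edgeR adjusted p = 0.456 with batch, 0.103 with the block, and DESeq2 adjusted p = 0.0120). Without F4/80high replicate 1 it was -1.86, at an edgeR adjusted p of 0.0470. The 10 B cell markers summed to 168, 72.6 and 18.5 CPM in F4/80high and 101, 154 and 22.8 CPM in F4/80low, with 7 of them below 0 and 3 above. Within each subset *Siglecg* and *Cd22* both had the order of libraries of this sum, and the eosinophil markers, at 538, 273 and 177 CPM in F4/80high and 1116, 1547 and 391 CPM in F4/80low, had it as well. *Cd22*, a B cell Siglec, was at 21.3, 12.0 and 3.56 CPM in F4/80high and 11.1, 15.2 and 4.44 CPM in F4/80low (log2 fold change 0.15 ± 0.37). The antibody panel of the study held B220, CD3e and NK1.1, markers of B, T and NK cells. The cells were sorted as negative for lineage markers, and RNA of B cell and of T and NK cell markers was read in every library. The part of B cells or eosinophils in either gene was not tested.

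*Siglec1*, the macrophage sialoadhesin that binds sialic acids on other cells without a signaling tail of its own, was at 58.9, 121 and 102 CPM in F4/80high and 24.5, 43.2 and 77.9 CPM in F4/80low. It was higher in 3 of 3 pairs, by 1.26, 1.49 and 0.39, and the subsets overlapped because F4/80low replicate 3 lay above F4/80high replicate 1. The log2 fold change was 1.08 ± 0.37, 0.60 without F4/80high replicate 2 and 1.41 without either library of replicate 3 (edgeR adjusted p = 0.540 with batch and 0.150 with the block, and 0.00987 in DESeq2 with the block).

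The Siglecs of highest level per kb did not separate the subsets. *Cd33*, a sialic acid receptor of myeloid cells, was at 87.4, 111 and 31.5 CPM in F4/80high and 165, 88.8 and 40.9 CPM in F4/80low (log2 fold change -0.36 ± 0.27). *Siglece*, an inhibitory receptor of neutrophils and macrophages, was at 54.7, 37.4 and 19.5 CPM in F4/80high and 84.3, 52.5 and 10.8 CPM in F4/80low (-0.13 ± 0.36). Both overlapped and both turned direction in a single pair, replicate 2 for *Cd33* and replicate 3 for *Siglece*. *Siglech*, a DAP12-paired marker of plasmacytoid dendritic cells, ranged from 1.22 to 16.5 CPM and went both ways, with pairs at 1.16, -2.60 and 0.98, beside 10 plasmacytoid dendritic cell markers at a summed 293 to 635 CPM in F4/80high and 247 to 713 CPM in F4/80low. The DAP12-paired *Siglec15* had 0, 0 and 1 counts in F4/80high, against 18, 0 and 4 counts in F4/80low. A count of 0 allows up to 3 counts, which were 0.0756 and 0.0582 CPM in F4/80high replicates 1 and 2, so no fold is given for it.

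**Figure D3:**
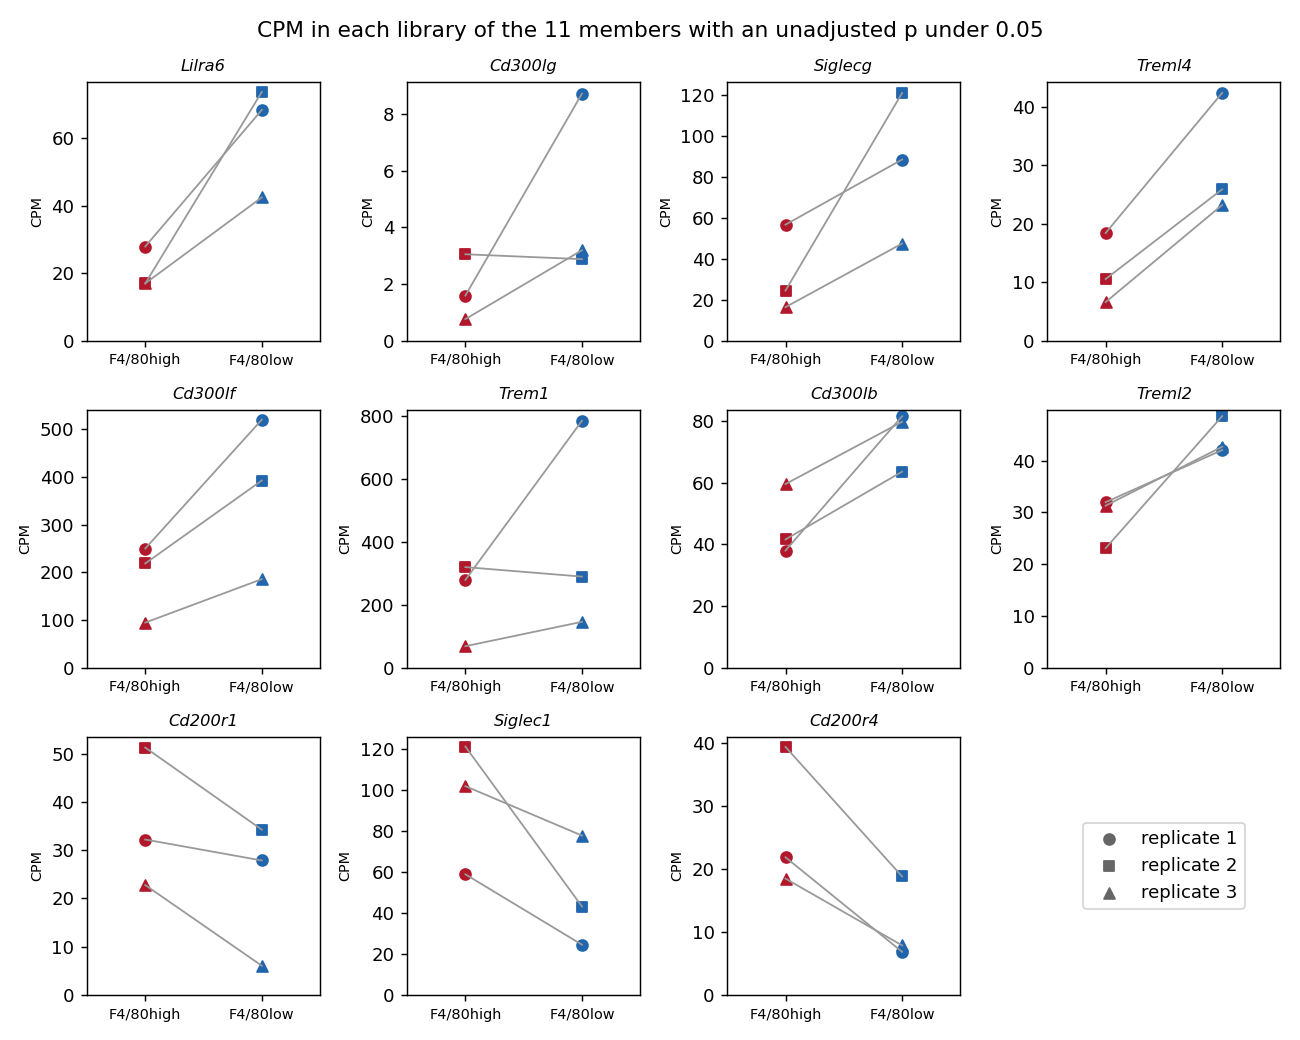
CPM in each library of the 11 members with an unadjusted p under 0.05 in the fit with batch, each on its own axis from 0, ordered by log2 fold change, with lines joining the libraries of a replicate. Every line rises to F4/80low for Lilra6, Siglecg, Treml4, Cd300lf, Cd300lb and Treml2, and every line falls to it for Cd200r1, Siglec1 and Cd200r4. In Cd300lg and Trem1 replicate 2 runs against the others.

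The CD300 receptors bind phospholipids and other lipids of dying cells and membranes. Apart from *Cd300lg*, the genes lie within 244 kb on chromosome 11 (114890041 to 115133992). *Cd300lf*, whose receptor has ITIMs, was at 250, 219 and 94.5 CPM in F4/80high and 520, 392 and 186 CPM in F4/80low. Each F4/80high library was close to its partner less 1 log2 unit, with pairs at -1.06, -0.84 and -0.97, while the subsets overlapped because replicate 3 was lower in both. The log2 fold change was -0.97 ± 0.22 (edgeR adjusted p = 0.456 with batch and 0.0674 with the block, and DESeq2 adjusted p = 0.00560), and it lay between -1.08 and -0.84 under the alternatives.

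*Cd300lb*, an activating DAP12-paired receptor, was at 38.0, 41.6 and 59.6 CPM in F4/80high and 81.6, 63.6 and 79.8 CPM in F4/80low. The subsets did not overlap, and the log2 fold change was -0.72 ± 0.23 (edgeR adjusted p = 0.530). *Cd300ld*, which pairs with the Fc receptor gamma chain, was at 135, 224 and 54.4 CPM in F4/80high and 221, 138 and 68.5 CPM in F4/80low, with no common direction (-0.11 ± 0.28). The inhibitory *Cd300a* was lower in 3 of 3 pairs by less, with a log2 fold change of -0.50 ± 0.25 and pairs at -0.70, -0.49 and -0.27. Per kb, *Cd300lf* stood at 0.758, 0.428 and 0.447 times the sum of *Cd300lb* and *Cd300ld* in F4/80high and at 0.905, 1.03 and 0.677 times in F4/80low. That ratio was lower in F4/80high in 3 of 3 pairs (exact permutation test, two-sided p = 0.2, 0.5 adjusted over 5 ratios, and exact sign-flip test of the pairs, two-sided p = 0.25).

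The other CD300 genes were sparse. *Cd300lg*, an endothelial member that lies apart on chromosome 11 (102041509 to 102055620), was at 1.59, 3.05 and 0.756 CPM in F4/80high and 8.72, 2.87 and 3.19 CPM in F4/80low. Its log2 fold change of -1.53 ± 0.62 rested on replicates 1 and 3, with replicate 2 at 0.08 (edgeR adjusted p = 0.635). The 8 endothelial markers tested summed to 36.2 to 84.0 CPM in F4/80high and 54.8 to 90.4 CPM in F4/80low, with 5 below 0, and *Emcn* was at 0 counts in F4/80high replicates 1 and 2. Their part in *Cd300lg* was not tested. *Cd300e*, a DAP12-paired monocyte receptor, had 84 to 711 counts a library and a log2 fold change of -0.55 ± 0.47. *Cd300c* had 2 to 29 counts and *Cd300lh* 0 to 3 counts a library, too few to show a difference at this depth.

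The TREM genes lie within 134 kb on chromosome 17 (48232768 to 48367176), and 3 of 5 were lower in F4/80high at an unadjusted p under 0.05. *Treml4*, a receptor of myeloid cells that binds dying cells, was at 18.4, 10.5 and 6.59 CPM in F4/80high and 42.4, 25.9 and 23.2 CPM in F4/80low. All F4/80high libraries lay below all F4/80low libraries, with pairs at -1.20, -1.29 and -1.81 and a log2 fold change of -1.42 ± 0.34 (edgeR adjusted p = 0.456 with batch and 0.0674 with the block, and DESeq2 adjusted p = 0.0203). *Treml2*, a receptor of myeloid and B cells, was at 32.0, 23.1 and 31.3 CPM in F4/80high and 42.1, 48.6 and 42.7 CPM in F4/80low. The subsets again did not overlap, at a smaller log2 fold change of -0.63 ± 0.24 (edgeR adjusted p = 0.615).

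*Trem1*, the DAP12-paired amplifier of neutrophil and monocyte inflammation, was at 279, 320 and 68.3 CPM in F4/80high and 786, 290 and 146 CPM in F4/80low. It was lower in replicates 1 and 3, by -1.49 and -1.09, but not in replicate 2, at 0.14. The log2 fold change was -0.93 ± 0.35 (edgeR adjusted p = 0.598 with batch) and -0.45 without F4/80low replicate 1. Over the same libraries the 12 neutrophil markers summed to 2210, 974 and 782 CPM in F4/80high and 5043, 3266 and 1579 CPM in F4/80low. *Trem3*, another DAP12-paired member, was at 18.9, 13.6 and 15.9 CPM in F4/80high and 41.9, 18.9 and 15.6 CPM in F4/80low (-0.61 ± 0.38). *Treml1*, a protein of platelet granules, had 0 to 49 counts a library, and of the 9 platelet markers tested 7 were at 3 counts or fewer in at least 1 library. *Trem2*, outside the rule, had a log2 fold change of 1.29 ± 0.45 and rose with the block (edgeR adjusted p = 0.553 with batch and 0.0391 with the block).

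The upstream bases of *Treml4* and *Cd300lf* are shown as the TREM and CD300 genes with the smallest p of their families. They are the 250 bases before the RefSeq start on GRCm38.p6, read on the strand of the gene, at chr17:48264045-48264294 (plus strand) and chr11:115133993-115134242 (minus strand), with the word GAGGAA or TTCCTC in capitals.
Treml4: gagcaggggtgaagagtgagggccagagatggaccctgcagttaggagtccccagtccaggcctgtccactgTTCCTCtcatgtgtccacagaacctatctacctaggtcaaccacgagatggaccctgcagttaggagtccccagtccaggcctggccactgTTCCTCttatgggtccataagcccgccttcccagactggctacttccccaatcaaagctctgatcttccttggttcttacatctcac
Cd300lf: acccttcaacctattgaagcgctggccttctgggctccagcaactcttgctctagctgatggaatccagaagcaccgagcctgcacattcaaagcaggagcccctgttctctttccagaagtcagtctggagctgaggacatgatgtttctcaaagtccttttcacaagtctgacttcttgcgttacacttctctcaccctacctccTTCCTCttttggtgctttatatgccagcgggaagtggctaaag
*Treml4* held the word 2 times and *Cd300lf* 1 time, all on the strand opposite to the gene.

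In the CD200R family 3 of 4 genes were higher in F4/80high in all pairs, among them *Cd200r2*, with 4 and 0 counts in replicate 3. The 4 genes lie within 216 kb on chromosome 16 (44765736 to 44981380) and had a median log2 fold change of 1.06, against -0.36 over the 37 members. *Cd200r1*, the inhibitory receptor of CD200, was at 32.2, 51.3 and 22.8 CPM in F4/80high and 27.9, 34.3 and 6.03 CPM in F4/80low. The subsets overlapped and the pairs were uneven, at 0.21, 0.58 and 1.91, with a log2 fold change of 0.88 ± 0.36 that was 0.43 without either library of replicate 3 (edgeR adjusted p = 0.640 with batch and 0.452 with the block).

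*Cd200r4*, an activating DAP12-paired relative, was at 21.8, 39.4 and 18.5 CPM in F4/80high and 6.84, 18.8 and 7.86 CPM in F4/80low. Its lowest F4/80high library lay just under its highest F4/80low library, and within pairs it was higher by 1.67, 1.06 and 1.23. The log2 fold change was 1.25 ± 0.41 (edgeR adjusted p = 0.533 with batch and 0.0991 with the block, and 0.00378 in DESeq2 with the block). *Cd200r2*, also activating, had 62, 109 and 4 counts in F4/80high, against 11, 38 and 0 counts in F4/80low, higher in 3 of 3 pairs at a log2 fold change of 2.06 ± 1.11 (edgeR adjusted p = 0.699). In replicate 3 the 0 counts allow up to 3 counts, or 0.342 CPM, against 0.432 CPM in F4/80high, so that pair is uncertain. *Cd200r3*, which is known from basophils and mast cells, had 2 to 113 counts a library and no common direction, beside 10 mast cell and basophil markers that were all below 0. Per kb, *Cd200r1* stood 1.48, 1.31 and 1.24 times above *Cd200r4* in F4/80high, and 4.10, 1.83 and 0.772 times in F4/80low. The ratio had no common direction (exact permutation test, two-sided p = 0.7). The ligand gene *Cd200* was at 3.92 to 19.1 CPM in F4/80high and 6.95 to 21.5 CPM in F4/80low.

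The SIRP and PILR genes did not separate the subsets. *Sirpa*, the inhibitory receptor of CD47, was at 431, 867 and 904 CPM in F4/80high and 565, 505 and 836 CPM in F4/80low (log2 fold change 0.22 ± 0.28, edgeR adjusted p = 0.884). *Sirpb1c*, a DAP12-paired SIRPβ gene, was at 49.6, 56.1 and 30.1 CPM in F4/80high and 66.1, 60.3 and 40.7 CPM in F4/80low, lower in 3 of 3 pairs by -0.41, -0.10 and -0.43. *Sirpb1b* was lower in 3 of 3 pairs too (-0.44 ± 0.37) and *Sirpb1a* was not (-0.15 ± 0.28), and 40.4 to 58.0% of the 50-base windows of the 3 SIRPβ genes occur in other genes. Per kb, *Sirpa* stood 2.87, 6.11 and 6.58 times above their sum in F4/80high and 2.55, 3.14 and 5.94 times in F4/80low, a ratio that was higher in F4/80high in 3 of 3 pairs and overlapped between the subsets (exact permutation test, two-sided p = 0.4, and exact sign-flip test of the pairs, two-sided p = 0.25). The gene of its ligand, *Cd47*, was at 458, 365 and 546 CPM in F4/80high and 492, 469 and 768 CPM in F4/80low, lower in 3 of 3 pairs (-0.31 ± 0.22, edgeR adjusted p = 0.746).

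*Pilra*, the inhibitory member of the PILR pair, was at 127, 223 and 70.0 CPM in F4/80high and 166, 167 and 66.6 CPM in F4/80low (0.07 ± 0.25). The activating *Pilrb2* was at 17.1, 21.1 and 19.7 CPM in F4/80high and 27.6, 26.2 and 20.7 CPM in F4/80low, lower in 3 of 3 pairs (-0.36 ± 0.26), and *Pilrb1* had a log2 fold change of -0.17 ± 0.30. *Pilrb1* and *Pilrb2* share 26.0% of their 50-base windows with each other. The ratio of *Pilra* to both, per kb, was 2.15, 3.72 and 1.00 in F4/80high, against 1.89, 2.08 and 1.11 in F4/80low (exact permutation test, two-sided p = 0.7).

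**Figure D4:**
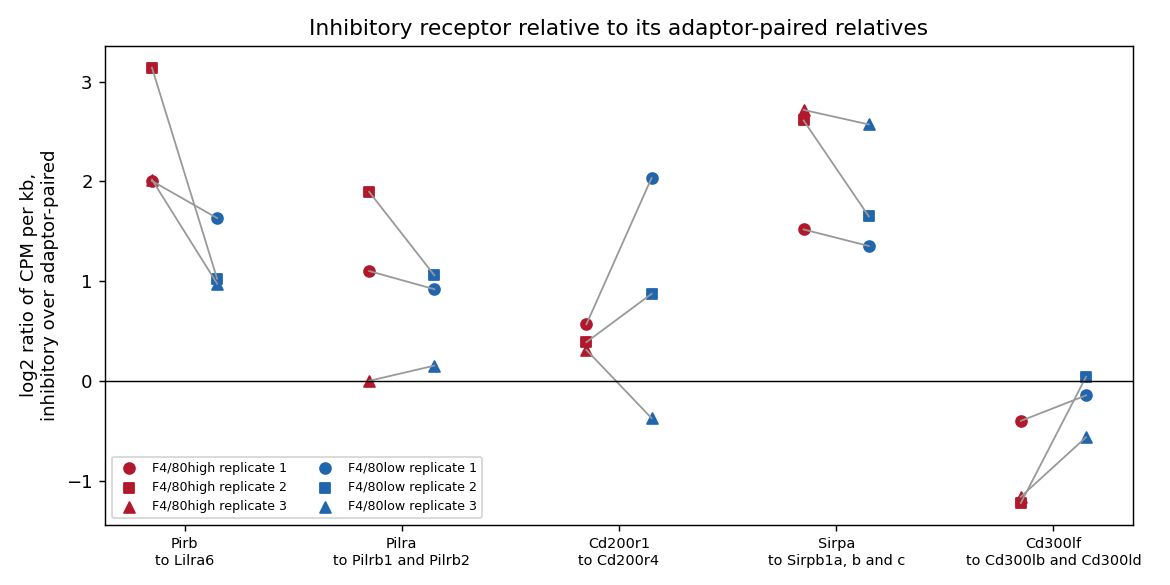
Log2 ratio, per kb of gene length, of an inhibitory receptor to chosen adaptor-paired relatives in each library. F4/80high is in red, F4/80low is in blue, and lines join the libraries of a replicate. The adaptor-paired Pira2, Lilra5, Cd200r2, Cd200r3, Cd300c and Cd300e of these families enter no ratio. The subsets are apart only for Pirb to Lilra6, where the mean log2 ratio is higher in F4/80high by 1.18, and the line at 0 marks equal levels.

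The genes through which the receptors signal were followed in 5 lists of 71 genes tested, of which 14 had an unadjusted p under 0.05, against 7.57% of all genes. This count was 4 without the batch term and 7 without replicate 3, while the 1118 of all genes became 260 and 567. Of the 3 adaptors 0 had an unadjusted p under 0.05. *Tyrobp* was at 437, 451 and 278 CPM in F4/80high and 509, 553 and 355 CPM in F4/80low (-0.29 ± 0.21), and *Fcer1g* was at 723, 1006 and 571 CPM in F4/80high and 603, 785 and 517 CPM in F4/80low (0.26 ± 0.24). *Tyrobp* was lower and *Fcer1g* higher in 3 of 3 pairs, each by less than the spread between libraries. Of 12 inhibitory phosphatases and adaptors 0 reached that p, among them *Ptpn6*, the gene of SHP-1, at 119 to 349 CPM in F4/80high and 127 to 393 CPM in F4/80low (-0.14 ± 0.20). The 3 smallest p of that list were those of *Dok3* (-0.43 ± 0.23), *Sh2b3* (-0.39 ± 0.21) and *Dok2* (-0.29 ± 0.27), adaptors that restrain kinase signals.

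Of 16 activating kinases and scaffolds 7 had an unadjusted p under 0.05, 5 lower in F4/80high and 2 higher. The Src-family kinase *Fgr* was at 154, 115 and 91.2 CPM in F4/80high and 330, 212 and 231 CPM in F4/80low, with no overlap (-1.12 ± 0.26, edgeR adjusted p = 0.456 with batch and 0.0542 with the block, DESeq2 adjusted p = 0.0107). *Btk*, a kinase downstream of SYK, was at 48.1, 51.6 and 181 CPM in F4/80high and 75.8, 88.1 and 357 CPM in F4/80low (-0.81 ± 0.21). The scaffold *Blnk* went the other way, at 37.3, 73.6 and 50.5 CPM in F4/80high and 13.7, 30.5 and 8.20 CPM in F4/80low, with no overlap (1.73 ± 0.43, edgeR adjusted p = 0.456 with batch and 0.0560 with the block). *Syk* itself was lower in 3 of 3 pairs (-0.78 ± 0.30).

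Of 16 protein ligands tested 3 were lower and 1 was higher at an unadjusted p under 0.05. *Cd24a*, of the Siglec-G ligand CD24, was at 338, 151 and 181 CPM in F4/80high and 629, 869 and 453 CPM in F4/80low (-1.52 ± 0.32, edgeR adjusted p = 0.456 with batch, 0.0674 with the block). *Cd177*, a neutrophil protein, was at 42.4, 21.9 and 24.3 CPM in F4/80high and 156, 53.1 and 70.7 CPM in F4/80low, and it fell with the block (-1.65 ± 0.41 with batch, edgeR adjusted p = 0.0318 with the block). *Apoe*, a lipid carrier that also binds TREM2, was at 5331, 9697 and 2393 CPM in F4/80high and 2002, 5335 and 623 CPM in F4/80low, and it rose with the block (1.33 ± 0.41 with batch, edgeR adjusted p = 0.0363 with the block).

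Of 24 sialic acid enzymes tested 8 had a log2 fold change above 0 and 16 below. At an unadjusted p under 0.05, 2 of the 24 were higher in F4/80high and 1 was lower, against 3.26% higher and 4.3% lower over all genes. The sialyltransferase *St6gal1*, which makes the α2,6 linkage that CD22 and Siglec-G bind, was at 24.7, 62.5 and 41.5 CPM in F4/80high and 20.1, 26.6 and 20.4 CPM in F4/80low (0.94 ± 0.35, edgeR adjusted p = 0.598). *St3gal4*, which adds α2,3-linked sialic acid, was at 91.4, 40.9 and 88.3 CPM in F4/80high and 148, 92.3 and 158 CPM in F4/80low, with no overlap (-0.85 ± 0.33, edgeR adjusted p = 0.613). *Nanp*, a phosphatase of sialic acid synthesis, was at 6.83, 11.1 and 0 CPM in F4/80high and under 1 CPM in F4/80low, so its difference rested on replicates 1 and 2.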

How the data were processed

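Bulk RNA-seq of 6 libraries, 3 of F4/80high and 3 of F4/80low TAMs, was analysed. The authors deposited a table of read counts for each library, whole numbers without normalization, with gene name, length and biotype, and the files show all biotypes with no filter. The aligner, genome build, annotation and use of strand are not given in the sources used here, so genes that overlap or are near copies may share reads. Coordinates are from GENCODE M21 (GRCm38), in which all 37 gene IDs were found, 2 of them under another symbol (*Lilrb4* and *Cd300lh*).

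Protein-coding rows with at least 10 summed counts (14776) were fitted in R 4.3.3 with edgeR 4.0.16 (quasi-likelihood test, TMM) with terms for batch and subset, and p-values were adjusted over all genes tested by Benjamini-Hochberg. CPM uses TMM-scaled library sizes, and log2 ratios of pairs a prior count of 2. In the fit with batch, the p-values measure the spread left between pools once batch and subset are taken off. Batch 2 held replicate 3 alone. This spread thus comes from replicates 1 and 2 and from the change of the subset difference between batches. In the fit with the replicate block, the p-values measure the spread of the subset difference over the 3 pairs. The study corrected for batch with DESeq2, which was run here (1.42.0) as an alternative, with the replicate block, no batch term, other scalings, filters and biotypes, and left-out libraries. Deposited lengths gave CPM per kb, and 3 counts were taken as the limit that a count of 0 allows, for counting error only. The fits were tested on simulated data with large planted changes in well-counted genes and a capped dispersion. The power to call genes at the spread of the present libraries was not tested.

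Replicates share a number because they come from the same experiment. Once the mean of each subset was taken off, the libraries of replicates 1, 2 and 3 correlated at 0.745, 0.729 and 0.907 over 10089 genes whose log2 CPM averaged 2 or more, and at 0.241 when the means were taken within batch 1 alone. Unmatched libraries of batch 1 correlated at 0.613 (F4/80high replicate 2 with F4/80low replicate 1) and 0.633 (F4/80high replicate 1 with F4/80low replicate 2). No library was a copy of another. Members and lists were chosen with earlier results of these data known, and the signaling classes, ratios and upstream stretches after values had been seen. Values in every library are given for members with an unadjusted p under 0.05, an adjusted p under 0.05 with the block, or among the 2 of highest level per kb of their family, and for *Pirb* and *Cd22*, which were added after their values were seen. Of each of the 5 signaling lists the 3 genes with the smallest p are named, with *Tyrobp*, *Fcer1g*, *Ptpn6* and *Cd47*. *Hcst* is the remaining adaptor (-0.23 ± 0.35). *Syk* and *Cd200* were added later. Marker lists of 11 cell types were read, and counts not given above follow. Of the macrophage markers 6 of 10 were above 0, with 2 higher at an unadjusted p under 0.05 and 1 called with the block. Of the platelet markers 6 of 9 were below 0, with 2 lower at that p. Of the plasmacytoid dendritic cell markers 8 of 10 were above 0. Of the dendritic cell markers 9 of 10 were below 0, with 1 lower at that p and 1 called with the block. At that p 1 mast cell and basophil marker was lower and 1 endothelial marker was higher. Of the melanoma markers 3 of 10 were tested and 3 were above 0, with 1 higher at that p.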

Additional observations from a re-analysis of the deposited data

How the results depend on the processing

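Of 18 alternative settings, the count of called members, 0 with batch, became 3 in DESeq2 with batch, 1 with the replicate block in edgeR, 1 with the adjusted p alone and the block (added after seeing the data) and 5 in DESeq2 with the block (*Cd200r4*, *Lilra6*, *Siglec1*, *Siglecg* and *Treml4*). Over all 14776 genes, 150 were called in DESeq2 with batch, 76 in edgeR with the block and 357 in DESeq2 with the block. The count of called members ranged from 0 to 1 when a library was left out. *Siglecg* was the member called without F4/80high replicate 1, where 55 of all genes were called. The 11 members with an unadjusted p under 0.05 became 3 without the batch term and 7 without both libraries of replicate 3, and ranged from 5 to 12 when a library was left out. Over all genes the 1118 at that p became 260 and 567, and ranged from 562 to 1994 when a library was left out. The 14 signaling genes at that p became 4 without the batch term and 7 without both libraries of replicate 3, and ranged from 7 to 17 when a library was left out. The 17 members of the same direction in 3 of 3 pairs became 22 to 26 when a library was left out, since 2 pairs then remain. The cause of these changes was not tested, apart from the fewer libraries in the latter. With batch as a term, leaving out a library of replicate 3 leaves its partner alone in batch 2. That partner then holds nothing on the subset difference, so either setting is nearly that of leaving out both. The median log2 fold change of the members stayed below 0 under all settings, from -0.41 to -0.07. Of the values of 38 named genes, 655 kept their side of an adjusted p of 0.05 and 27 passed it under an alternative, and 6 values turned sign, past the threshold under neither setting (*Siglece*, *Pilra*, *Cd300ld* and *Sirpa*, each with a library left out). Besides *Lilra6*, *Apoe*, *Cd177* and *Trem2*, the replicate block in edgeR changed no call of a gene named here. Members under 100 counts in all 6 libraries together, *Siglec15*, *Cd300lh*, *Cd300c* and *Treml1*, were too shallow for a difference to be read.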
